A study of Homo sapiens with 35 samples.

Results

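H9 human embryonic stem cells that had spent 48 h in E6 medium were compared with the same line at the start of the experiment (t0). The comparison takes 6 of the 35 libraries of the series: replicates 1 to 3 of E6 at 48 h and replicates 1 to 3 of t0, chosen by the names of their columns in the deposited count table. Poly(A) RNA was sequenced, and the values are read counts per gene. H9 cells were maintained in E8 on Matrigel, were passaged with EDTA and were seeded as single cells. E6 cells were then held in E6 with no added factor, which the labels give as spontaneous differentiation. E8 cells (48 h, 3 libraries) were kept in the pluripotency medium over the same time. The study also followed cells given BMP4 plus Activin A, each at a dose of 40 ng/mL, which are not compared here. H9 is a single line, and it is not stated in the labels if the replicates grew as separate cultures. P-values therefore measure only the spread between the libraries fitted. The fit took in 15 libraries of 5 groups, with 3 each of BMP4 plus Activin A at 24 and 48 h among them. The labels also do not say whether t0 cells were collected before or after they were made into single cells.

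E8 is a defined medium that holds FGF2 and TGFβ, and E6 is that medium without those factors. FGF2 signals through FGF receptors to the kinase ERK, and TGFβ, like Activin and Nodal, signals through SMAD2 and SMAD3. Both routes sustain primed pluripotency in human cells, and human pluripotent cells that lose SMAD2/3 signalling without other cues tend to take on an anterior neural fate.

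The 9 libraries of E6, E8 and t0 held 17562913, 32379116 and 31326342 counts in E6, 17340923, 37191969 and 26097462 in E8 and 19274380, 31251959 and 28964895 in t0, each for replicates 1, 2 and 3. Levels are given as CPM, the count after scaling every library to the same total, and values below about 1 CPM rest on few reads. Replicate 1 stood apart from replicates 2 and 3 in each group: its log CPM correlated with theirs at 0.919 to 0.932 across genes, against 0.992 to 0.995 between replicates 2 and 3. No label gives a reason, and the cause was not tested. Mitochondrially encoded transcripts took 2.08, 2.38 and 2.53% of counts in E6, 1.83, 2.88 and 3.68% in E8 and 1.86, 4.43 and 5.51% in t0. The 22 primed pluripotency markers were detected in every group and summed to 7510 to 8780 CPM in E6, 6530 to 8300 CPM in E8 and 8370 to 9290 CPM in t0. The E6 range overlapped those of E8 and of t0. For replicates 1, 2 and 3 the sum was 8780, 7590 and 7510 CPM in E6. It was 8300, 7350 and 6530 CPM in E8 and 8370, 9290 and 8910 CPM in t0. Within each replicate number E6 was above E8. Against t0 it was higher in replicate 1 and lower in replicates 2 and 3. The sum was not tested. In bulk RNA, fewer cells of a type and less RNA per cell cannot be told apart.

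Of 21554 genes tested, 7553 (35.0%) differed between E6 and t0 at a Benjamini-Hochberg adjusted p below 0.05, in edgeR's quasi-likelihood test with the replicate number as a block. Of these, 3686 (17.1%) were higher and 3867 (17.9%) were lower in E6. At least 2-fold changes were mostly rises, with 2360 genes (10.9%) higher and 678 (3.15%) lower, 14.1% of all genes together. Without the block 836 genes (3.88%) were called, 582 (2.70%) higher and 254 (1.18%) lower, so that 69.6% of calls were rises, against 48.8% with it. With replicates 2 and 3 alone 12407 genes were called, and leaving out 1 library of E6 or t0 gave 3932 to 7528. The count fell below 7553 by more than 1.5-fold without E6 replicate 2 (4303), E6 replicate 3 (3982), t0 replicate 2 (4026) or t0 replicate 3 (3932). All log2 changes below are from the fit with the block, each with its SE.

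Some of the genes that moved most also separated E6 from E8. Others had E6 and E8 both far from t0, and some were called in neither E6 minus E8 nor E8 minus t0. Of the 12 protein-coding genes with the largest rise, FEZF1, LHX5, C5orf38, COX6B2 and GREB1L were also higher in E6 than in E8 in the direct test, and the other 7 were not called there (NPTX1, EGR3, ICAM5, SLC16A3, ANKRD33, NRN1 and CD300A). ANKRD33, which encodes an ankyrin repeat protein, had 0.894, 18.2 and 20 CPM in E6, 1.38, 15.2 and 20 CPM in E8 and 0.0531, 0.227 and 0.0352 CPM in t0. Its E6 and E8 values overlapped, and both lay above every t0 value. Of the 12 largest falls, DUSP6, GBX2, NTS and SIX6 were also lower in E6 than in E8. ANXA1 (annexin A1, a membrane-binding protein) and CAV1 (the caveolar coat protein) fell by 3.33 ± 0.63 (adjusted p = 0.00263) and 2.88 ± 0.37 (adjusted p = 4.21e-04) on the log2 scale against t0. In E6 minus E8 they stood at -0.24 ± 0.63 (adjusted p = 0.937) and -0.98 ± 0.36 (adjusted p = 0.23). LRAT (which esterifies retinol), GCNT4, GLIPR1L1, HEY2, SHC3 and TIMP4 made up the rest of the falls. GLIPR1L1 was also called lower in E8 minus t0 (adjusted p = 0.0102). LRAT, GCNT4, HEY2, SHC3 and TIMP4 were called neither there (adjusted p of 0.0641 to 0.977) nor in E6 minus E8. LHX5, GCNT4 and TIMP4 lost their calls in 4 of the 6 fits that left out 1 library: without E6 replicate 2 or 3 for each of them, without t0 replicate 2 or 3 for LHX5 and TIMP4, and without E6 replicate 1 or t0 replicate 1 for GCNT4.

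Several transcription factors of the forebrain were higher in E6. Of the 20 anterior neuroectoderm markers tested, 7 rose (LHX5, FEZF1, RAX, DLK1, OTX2, OTX1 and SOX11) and 1 fell (SIX6), against 17.1 and 17.9% of all genes. The median log2 change of the markers was 0.90, against -0.015 over all genes tested. Without the block 1 was called higher, and when 1 library was left out 2 to 8 were. Their summed level was 552 to 690 CPM in E6, 258 to 336 CPM in E8 and 266 to 323 CPM in t0. Most of the E6 sum was OTX2, given below, and SOX11, both well expressed at t0 already. SOX11 had 189, 142 and 161 CPM in E6, 142, 89.2 and 82.1 CPM in E8 and 121, 81.2 and 81.1 CPM in t0. FEZF1, a forebrain zinc-finger repressor (chr7:122301394-122310691, hg38), had 28.6, 34.4 and 44.1 CPM in E6, 0.403, 0.176 and 0.479 CPM in E8 and 1.33, 1.04 and 1.06 CPM in t0. Each E6 value was above every E8 and t0 value. It rose by a log2 change of 5.0 ± 0.37 against t0 (adjusted p = 2.97e-05) and stood 6.72 ± 0.42 above E8 (adjusted p = 2.15e-05).

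LHX5, a LIM homeobox factor of the early forebrain, had 1.73, 22.5 and 28.6 CPM in E6, 0.979, 0.101 and 0.103 CPM in E8 and 1.38, 0.0324 and 0.106 CPM in t0. In replicate 1 the E6 library was little above its t0 and E8 libraries, and the rise lay in replicates 2 and 3. The log2 change was 5.83 ± 1.39 against t0 (adjusted p = 0.00837), and its call was lost without E6 replicate 2 or 3 or t0 replicate 2 or 3 (adjusted p up to 0.0605). OTX2, a homeobox factor of the forebrain and midbrain, had 161, 272 and 286 CPM in E6, 21.0, 30.6 and 26.0 CPM in E8 and 39.3, 71.6 and 65.5 CPM in t0. All 3 E6 libraries were above all others. The log2 change was 2.07 ± 0.65 (adjusted p = 0.0292). Among the 6 fits that left out 1 library, OTX2 was called only in that without E6 replicate 1, with an adjusted p up to 0.105 in the others. With the block in the 6 libraries of E6 and t0 alone, OTX2 was called (adjusted p = 0.00387) and LHX5 was not (0.0695). RAX, the eye field homeobox gene, rose by 3.14 ± 0.70 (adjusted p = 0.00589) at 0.391 to 1.93 CPM in E6, and lost its call without t0 replicate 2 (adjusted p = 0.0592). In replicate 1 RAX was level, at 0.391 CPM in E6 and 0.372 CPM in t0. It also rose in E8 minus t0 (2.71 ± 0.71, adjusted p = 0.0186) and was not called in E6 minus E8 (0.44 ± 0.52, adjusted p = 0.819). SIX6, an eye and pituitary homeobox gene, went the other way. It had 5.53, 0.312 and 0.259 CPM in E6, 23, 10.3 and 5.14 CPM in E8 and 27.7, 36.2 and 19.3 CPM in t0, a log2 change of -4.51 ± 0.73 (adjusted p = 0.00122). PAX6, the marker of committed human neuroectoderm, was not called: it had 1.95, 0.284 and 0.431 CPM in E6 and 0.902, 0.356 and 0.493 CPM in t0. SIX3, another eye field factor, was not called either (2.53 ± 1.10, adjusted p = 0.0958).

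**Figure D1:**
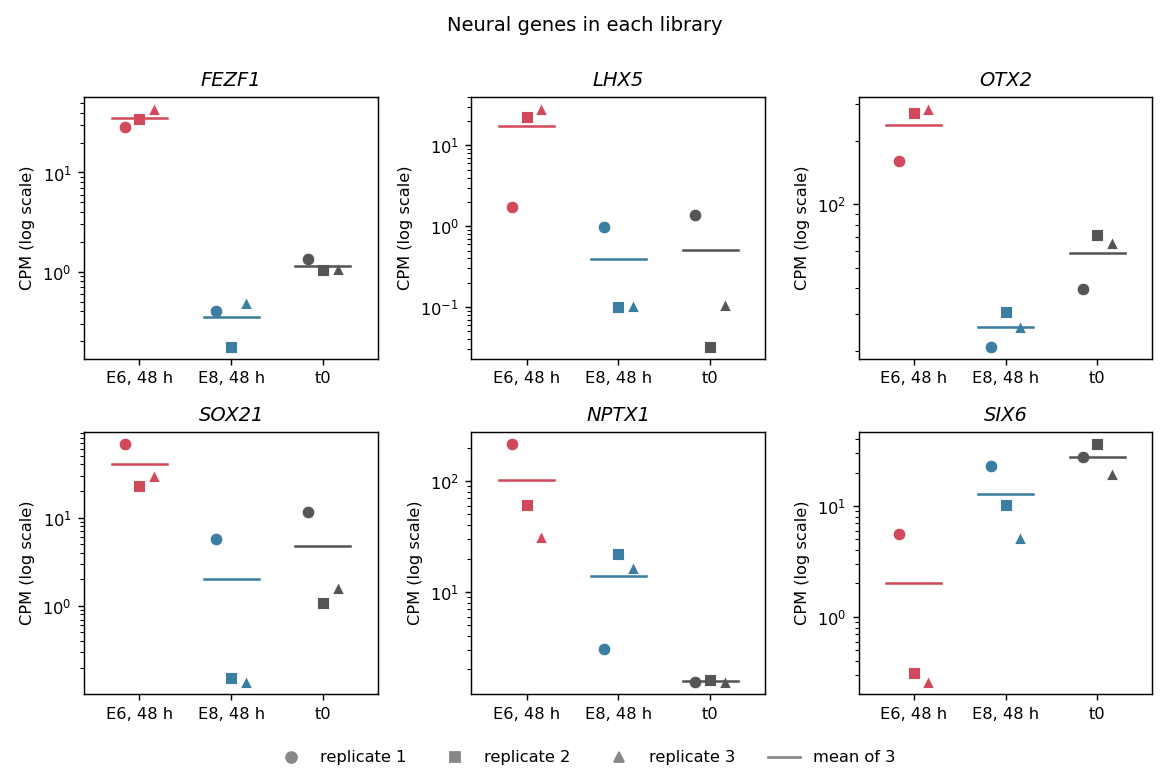
Expression of FEZF1, LHX5, OTX2, SOX21, NPTX1 and SIX6 in E6 at 48 h, E8 at 48 h and t0 (from left to right), as CPM on a log axis; circles, squares and triangles are replicates 1, 2 and 3, and the line is the mean of the 3. FEZF1 and OTX2 are above E8 and t0 in all 3 E6 libraries (28.6 to 44.1 and 161 to 286 CPM), whereas LHX5 is at 1.73 CPM in E6 replicate 1 and at 22.5 and 28.6 CPM in E6 replicates 2 and 3.

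Factors of the SOX and ZIC families moved in both directions. Of 15 tested, 4 rose and 1 fell (0 and 0 without the block), against 17.1 and 17.9% of all genes. SOX21, a neural progenitor factor, had 68.4, 22.7 and 29.7 CPM in E6, 5.70, 0.151 and 0.137 CPM in E8 and 11.7, 1.07 and 1.59 CPM in t0. Every E6 value was above every value of E8 and t0, and the log2 change was 4.30 ± 0.90 against t0 (adjusted p = 0.00457) and 6.49 ± 1.04 against E8 (adjusted p = 0.00741). ZIC2, a zinc-finger factor of the forebrain, rose by 0.51 ± 0.11 (adjusted p = 0.00416). SOX4 had 187, 123 and 109 CPM in E6, 332, 230 and 211 CPM in E8 and 264, 171 and 169 CPM in t0. It was lowest in E6 within each replicate number and fell by 0.51 ± 0.11 (adjusted p = 0.00523). Without the block, FEZF1 kept its call (adjusted p = 7.52e-04), whereas SOX21 (adjusted p = 0.489), LHX5 (0.0697), OTX2 (0.0925), ZIC2 (0.395), SOX4 (0.289), RAX (0.0679) and SIX6 (0.057) did not.

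Of 17 neuronal and synaptic genes tested, 9 rose and 1 fell in E6, against 17.1 and 17.9% of all genes. Their median log2 change was 1.06 (5 rose without the block, and 8 to 9 when 1 library was left out). NPTX1, a secreted neuronal pentraxin (chr17:80467148-80477843, hg38), had 216, 60.5 and 31.0 CPM in E6, 3.05, 21.9 and 16.3 CPM in E8 and 1.54, 1.62 and 1.55 CPM in t0. Every E6 value exceeded every E8 value, with the widest gap in replicate 1, and the direct test gave 2.35 ± 0.76 (adjusted p = 0.157). Against t0 the log2 change was 5.70 ± 0.87 (adjusted p = 9.56e-04).

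STMN2 and ELAVL3, a microtubule regulator and an RNA-binding protein of neurons, rose by 2.44 ± 0.46 (adjusted p = 0.00253) and 2.84 ± 0.47 (adjusted p = 0.00134). ELAVL3 stayed low, at 1.68 to 2.96 CPM in E6 and 0.247 to 0.584 CPM in t0. The neurofilament gene NEFL (1.67 ± 0.40), the microtubule-binding DCX (1.33 ± 0.31) and MAP2 (1.12 ± 0.28) rose as well, and of these MAP2 was also called against E8 (1.42 ± 0.28, adjusted p = 0.0224). MAP2 lost its call against t0 without t0 replicate 2 or 3 (adjusted p up to 0.0657). GAP43, a growth cone protein, fell by 1.2 ± 0.43 (adjusted p = 0.0484), a call that none of the 6 fits with 1 library left out retained. Without the block NPTX1 (adjusted p = 0.0136), STMN2 (0.0225) and ELAVL3 (0.0244) kept their calls, and NEFL, DCX, MAP2 and GAP43 did not (0.0668 to 0.591).

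Several genes that FGF-ERK signalling turns on were lower in E6 than in t0 and than in E8. Of 20 tested, 10 fell and 2 rose against t0, where 17.9% of all genes fell and 17.1% rose. Without the block 3 of the 20 fell, and 7 to 8 when 1 library was left out. In E6 minus E8, where 612 genes in all were called (2.84%, 328 or 1.52% higher and 284 or 1.32% lower), 7 of the 20 were lower and 0 higher. DUSP6, a phosphatase that inactivates ERK (chr12:89347232-89353271, hg38), had 77.2, 43.3 and 37.1 CPM in E6, 448, 542 and 505 CPM in E8 and 356, 272 and 238 CPM in t0. The groups did not overlap. It fell by 2.49 ± 0.36 on the log2 scale against t0 (adjusted p = 7.54e-04) and was lower than in E8 (-3.38 ± 0.38, adjusted p = 8.88e-04). ETV4 and ETV5, ETS factors downstream of FGF, fell by 1.70 ± 0.16 (adjusted p = 9.07e-05) and 1.58 ± 0.14 (adjusted p = 6.52e-05). ETV5 had 28.5, 23.3 and 22.0 CPM in E6, 86.5, 95.1 and 85.6 CPM in E8 and 88.6, 67.2 and 68.5 CPM in t0. The E6 libraries were below all others, and the E8 and t0 libraries overlapped.

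Feedback inhibitors of the pathway were among the genes that fell. SPRY4, a Sprouty inhibitor of receptor tyrosine kinase signalling, had 111, 121 and 111 CPM in E6, 427, 432 and 404 CPM in E8 and 344, 268 and 240 CPM in t0, with no overlap between groups. Its log2 change was -1.22 ± 0.41 (adjusted p = 0.0396), a call kept only without t0 replicate 1 among the fits that left out 1 library (adjusted p up to 0.122). In the 6 libraries of E6 and t0 alone with the block SPRY4 was called (adjusted p = 0.00845). IL17RD, a membrane inhibitor of FGF signalling, fell by 1.41 ± 0.16 (adjusted p = 2.11e-04) and SPRY2 by 0.73 ± 0.18 (adjusted p = 0.0101). MYC fell by 0.70 ± 0.25 (adjusted p = 0.046) and lost its call without E6 replicate 1 or 3 or t0 replicate 1 or 3 (adjusted p up to 0.173). The 2 members that rose were EGR1 and PHLDA1. EGR1, an immediate early zinc-finger factor, had 45.5, 563 and 392 CPM in E6, 15.1, 229 and 180 CPM in E8 and 7.8, 27.2 and 22.2 CPM in t0. E6 was highest within each replicate number, and EGR1 rose by 3.75 ± 0.66 (adjusted p = 0.00189), a larger change than the fall of DUSP6 and one called in each fit that left out 1 library. PHLDA1, a pleckstrin homology domain protein, rose by 1.73 ± 0.58 (adjusted p = 0.0387) and was called only without E6 replicate 1 in those fits (up to 0.139). Neither was called against E8 (1.29 ± 0.58 and 0.15 ± 0.56) or without the block (0.0811 and 0.179). Without the block DUSP6 (adjusted p = 0.0201), ETV4 (0.00539) and ETV5 (0.00293) kept their calls, and IL17RD, SPRY2, SPRY4 and MYC did not (0.0687 to 0.523).

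**Figure D2:**
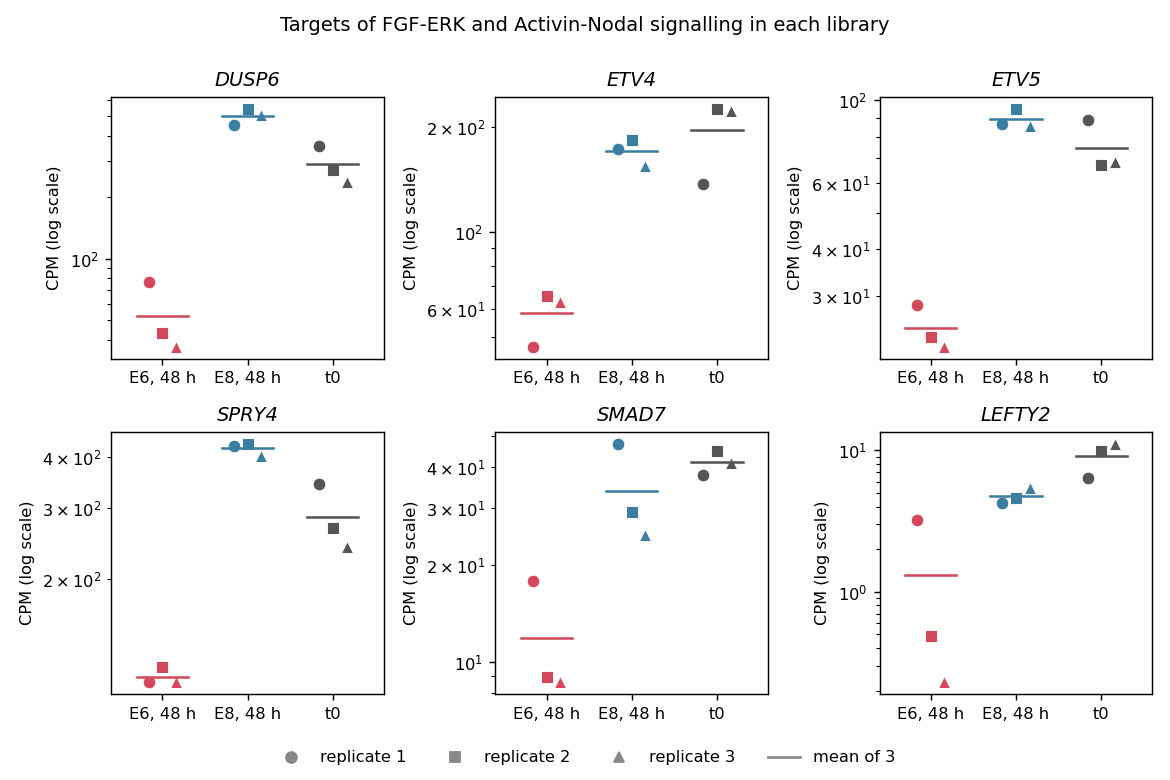
Expression of DUSP6, ETV4, ETV5, SPRY4, SMAD7 and LEFTY2 in E6 at 48 h, E8 at 48 h and t0 (from left to right), as CPM on a log axis; circles, squares and triangles are replicates 1, 2 and 3, and the line is the mean of the 3. The E6 libraries lie below every E8 and t0 library for each of the 6 genes, for example at 37.1 to 77.2 CPM for DUSP6, against 448 to 542 CPM in E8 and 238 to 356 CPM in t0.

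Receptors of the pathway moved the opposite way. Of 19 FGF ligands and receptors tested, 8 rose and 2 fell against t0, where 17.1% of all genes rose and 17.9% fell. Against E8, 5 were higher and 2 lower, where 1.52 and 1.32% of all genes were. Without the block 4 were called higher than in t0, and 6 to 8 when 1 library was left out. FGFR3 had 128, 130 and 144 CPM in E6, 44.1, 28.7 and 27.9 CPM in E8 and 50.3, 22.1 and 22.9 CPM in t0. All E6 values were above all others, and the log2 change was 2.17 ± 0.36 against t0 (adjusted p = 0.00149) and 2.05 ± 0.36 against E8 (adjusted p = 0.0109). FGFR1 rose by 1.04 ± 0.15 (adjusted p = 6.34e-04), FGFR2 by 0.91 ± 0.25 (adjusted p = 0.0162) and FGFR4 by 0.83 ± 0.13 (adjusted p = 9.04e-04). FGFR4 was not called against E8 (0.14 ± 0.12), and FGFR2 lost its call against t0 without E6 replicate 1 or t0 replicate 2 or 3 (adjusted p up to 0.0834). The ligand gene FGF4 rose by 3.14 ± 0.70 (adjusted p = 0.00601) at only 0.603 to 0.738 CPM in E6. The gene of the ligand left out of the medium, FGF2, had 151, 70.6 and 68.1 CPM in E6, 79.8, 57.1 and 56.5 CPM in E8 and 143, 68.1 and 65.9 CPM in t0 and was not called. Without the block FGFR3 (adjusted p = 0.0166), FGFR1 (0.0143) and FGFR4 (0.0194) kept their calls, and FGFR2 (0.075) and FGF4 (0.0526) did not.

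Of 14 targets of Activin and Nodal tested, 6 fell and 1 rose, with a median log2 change of -1.45, against 17.9% of all genes lower. Without the block 1 was called lower, and when 1 library was left out 2 to 8 were. SMAD7, an inhibitor that the pathway induces against itself, had 17.8, 8.94 and 8.65 CPM in E6, 47.3, 29 and 24.7 CPM in E8 and 38.0, 44.9 and 41.4 CPM in t0. Each E6 value was below every E8 and t0 value. SMAD7 fell by 1.90 ± 0.20 (adjusted p = 1.51e-04) and was also lower than in E8 (-1.53 ± 0.20, adjusted p = 0.00244). PMEPA1, another negative regulator of SMAD signalling, fell by 1.2 ± 0.14 (adjusted p = 2.66e-04) and was lower than in E8 as well (-0.87 ± 0.14, adjusted p = 0.00769). FST, which encodes the Activin antagonist follistatin, was the member that rose, with 133, 44.6 and 46.4 CPM in E6, 30.4, 4.56 and 3.60 CPM in E8 and 61.0, 20.4 and 24.5 CPM in t0. It was highest in E6 within each replicate number (1.09 ± 0.24 against t0, adjusted p = 0.00623, and 2.94 ± 0.26 against E8, adjusted p = 2.38e-04).

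Several Nodal-axis genes differed by replicate number. LEFTY2, a secreted Nodal inhibitor, had 3.24, 0.483 and 0.230 CPM in E6, 4.26, 4.58 and 5.41 CPM in E8 and 6.42, 9.87 and 11.1 CPM in t0, a log2 change of -2.94 ± 0.81 (adjusted p = 0.0162) lost without E6 replicate 2 or 3 or t0 replicate 2 or 3 (adjusted p up to 0.093). Its neighbour in function LEFTY1 had 10.1, 0.312 and 0.115 CPM in E6 and 15.5, 13.9 and 14.0 CPM in t0, and was not called (adjusted p = 0.149). E6 replicate 1 was near t0 for LEFTY1, and E6 replicates 2 and 3 were far below it. SKIL, a SMAD co-repressor, fell by 1.14 ± 0.40 (adjusted p = 0.0447), called only without E6 replicate 1 among the fits that left out 1 library (up to 0.225), and NODAL fell by 1.59 ± 0.56 (adjusted p = 0.044), called in none of them (up to 0.177). Without the block SMAD7 kept its call (adjusted p = 0.0199), and PMEPA1, FST, LEFTY2, SKIL and NODAL did not (0.0683 to 0.808).

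Of 13 BMP-SMAD targets, 2 rose (ID1 and ID2) and 4 fell (HEY1, BAMBI, SMAD7 and DLX5), against 17.1 and 17.9% of all genes, while 7 of 20 BMP ligands and antagonists rose and 0 fell. Without the block 0 of the targets were called higher and 2 lower, and 1 of the ligands and antagonists higher. When 1 library was left out 0 to 2 targets were higher and 2 were lower, and 4 to 7 ligands and antagonists were higher. HEY1, a target shared with Notch, was called in none of those fits (adjusted p up to 0.168). ID1, an inhibitor of differentiation factors, had 35.9, 80.4 and 76.0 CPM in E6, 10.9, 11.7 and 9.24 CPM in E8 and 10.5, 41.5 and 39.7 CPM in t0. It was highest in E6 within each replicate number, with a log2 change of 1.22 ± 0.40 against t0 (adjusted p = 0.0353) and 2.44 ± 0.43 against E8 (adjusted p = 0.0118). In the 6 libraries of E6 and t0 alone with the block ID1 and ID2 were called (adjusted p = 0.00808 and 0.00572). The call of ID1 against t0, and that of ID2 (0.85 ± 0.26, adjusted p = 0.0268), held in none of the fits that left out 1 library (up to 0.118 and 0.0893). The ligand genes BMP4 and BMP7 rose by 1.94 ± 0.46 (adjusted p = 0.00826) and 1.88 ± 0.59 (adjusted p = 0.0283), and BMP7 was called only without t0 replicate 1 in those fits (up to 0.125). None of ID1, ID2, BMP4 and BMP7 was called without the block (adjusted p of 0.129 to 0.425).

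Pluripotency factors did not move together. Of the 22 primed pluripotency markers 3 rose, FGF4 and SALL4 among them, and 3 fell (POLR3G, NANOG and L1TD1; 0 and 0 without the block), against 17.1 and 17.9% of all genes. POU5F1, the core factor OCT4, had 553, 957 and 1020 CPM in E6, 660, 1880 and 1470 CPM in E8 and 456, 1390 and 1050 CPM in t0, and the groups overlapped (-0.03 ± 0.29, adjusted p = 0.944). SOX2, its partner and a neural factor as well, had 410, 300 and 291 CPM in E6, 218, 138 and 129 CPM in E8 and 227, 215 and 211 CPM in t0. All E6 values were above all others, but the fitted change of 0.65 ± 0.77 did not pass the test (adjusted p = 0.548). Within replicates 1, 2 and 3 SOX2 differed from t0 by 0.85, 0.48 and 0.47 in log2(CPM + 0.5). The SE draws on the spread of all 15 libraries fitted, those given BMP4 plus Activin A among them. NANOG had 21.9, 16.4 and 10.8 CPM in E6, 32.5, 62.1 and 63.5 CPM in E8 and 26.7, 56.9 and 58.3 CPM in t0. It fell by 1.30 ± 0.46 (adjusted p = 0.0475), called only without E6 replicate 1 among the fits that left out 1 library (adjusted p up to 0.233).

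L1TD1, an RNA-binding protein of pluripotent cells, fell by 1.38 ± 0.26 (adjusted p = 0.00274), and SALL4, a zinc-finger pluripotency factor, rose by 0.47 ± 0.10 (adjusted p = 0.00516). POLR3G, an RNA polymerase III subunit, fell by 1.17 ± 0.40 (adjusted p = 0.0401), called only without E6 replicate 1 in those fits (up to 0.169). THY1, a surface antigen of undifferentiated human cells, had 88.3, 125 and 123 CPM in E6, 388, 478 and 421 CPM in E8 and 334, 596 and 572 CPM in t0, and fell by 2.10 ± 0.21 (adjusted p = 1.03e-04). It stood lower than in E8 too (-1.96 ± 0.21, adjusted p = 6.20e-04). Without the block THY1 kept its call (adjusted p = 0.02), and NANOG, L1TD1, SALL4 and POLR3G did not (0.176 to 0.273). POU5F1 and NANOG have pseudogene copies that could share their reads, so their counts are uncertain.

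Some markers of primitive streak, endoderm, mesoderm and trophoblast were called higher, and the median fitted change of each list was upward. Of the 15 primitive streak markers 3 rose and 1 fell (median log2 change 1.10), and of 10 definitive endoderm markers 2 rose and 0 fell (median 1.12). Of 10 early mesoderm and 9 trophoblast and amnion markers 3 rose and 0 fell in each list (medians 1.11 and 1.22). Over all genes 17.1% were called higher and 17.9% lower, with a median of -0.015. Without the block, 0 of the streak, mesoderm and trophoblast markers and 2 of the endoderm markers were called higher, and when 1 library was left out 1 to 4 streak, 2 to 4 endoderm and 1 to 3 trophoblast markers were. TBX6, a T-box factor of presomitic mesoderm, had 1.79, 8.12 and 8.53 CPM in E6, 1.21, 6.27 and 5.1 CPM in E8 and 0.425, 1.36 and 1.06 CPM in t0. All E6 values were above all t0 values, and TBX6 rose by 2.67 ± 0.66 (adjusted p = 0.00968), called in each fit that left out 1 library but not without the block (0.0667). It was not called against E8 (0.56 ± 0.58, adjusted p = 0.778). TBXT (brachyury, the primitive streak factor) had 1.01, 0.795 and 0.977 CPM in E6, 0.691, 0.252 and 0.308 CPM in E8 and 0.212, 0.0324 and 0.211 CPM in t0. Its rise of 2.93 ± 0.96 (adjusted p = 0.0339) was lost without E6 replicate 2 or 3 or t0 replicate 1 or 2 (adjusted p up to 0.142) and without the block (0.217). EOMES, MIXL1, GSC, MESP1 and SOX17 (streak, mesoderm and endoderm factors) were not called, nor was CDX2, a trophoblast and posterior factor with no read in the 3 E6 libraries. KRT7, a keratin of trophoblast and other simple epithelia, had 3.80, 20.6 and 20 CPM in E6, 1.32, 4.38 and 3.46 CPM in E8 and 0.584, 3.56 and 2.47 CPM in t0. It was highest in E6 within each replicate number and rose by 2.80 ± 0.30 (adjusted p = 1.59e-04). The summed level of the 12 trophoblast and amnion markers was 11.9 to 29.3 CPM in E6, 7.55 to 17.1 CPM in E8 and 6.26 to 7.93 CPM in t0. For the 12 endoderm markers it was 54.1 to 70.4 CPM in E6, 47.3 to 59.5 CPM in E8 and 23.3 to 37.4 CPM in t0. The sums of the other 2 lists overlapped between E6 and t0. The 15 streak markers had 58.6 to 78.1 CPM in E6, 50.5 to 60.9 CPM in E8 and 40.5 to 74.3 CPM in t0. The 14 mesoderm markers had 73.2 to 83.1 CPM in E6, 88.5 to 103 CPM in E8 and 68.6 to 108 CPM in t0. The part of these markers in the other results was not tested.

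Metabolic and stress lists moved against t0 in E8 as well as in E6. E6 minus E8 called only 2.84% of all genes (1.52% higher and 1.32% lower), so few calls there do not set these lists apart. E8 minus t0, which uses the same t0 libraries as E6 minus t0, called 5510 genes (25.6%), 2716 (12.6%) higher and 2794 (13.0%) lower. Of the 27 hypoxia and glycolysis genes 22 rose and 0 fell in E6 minus t0 (17.1 and 17.9% of all genes), and 21 rose and 0 fell in E8 minus t0. In E6 minus E8, 0 were higher and 1 was lower. Of 16 genes of the unfolded protein response 14 fell in E6 and 8 in E8 against t0, and of 13 mitochondrially encoded mRNAs 9 fell in E6 and 8 in E8. None of these 29 genes was called in E6 minus E8 by edgeR's quasi-likelihood test, in which 3032 of all genes had an unadjusted p below 0.05. By contrast, the FGF-ERK targets counted 2 higher and 10 lower in E6 minus t0 and 1 higher and 1 lower in E8 minus t0.

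**Figure D3:**
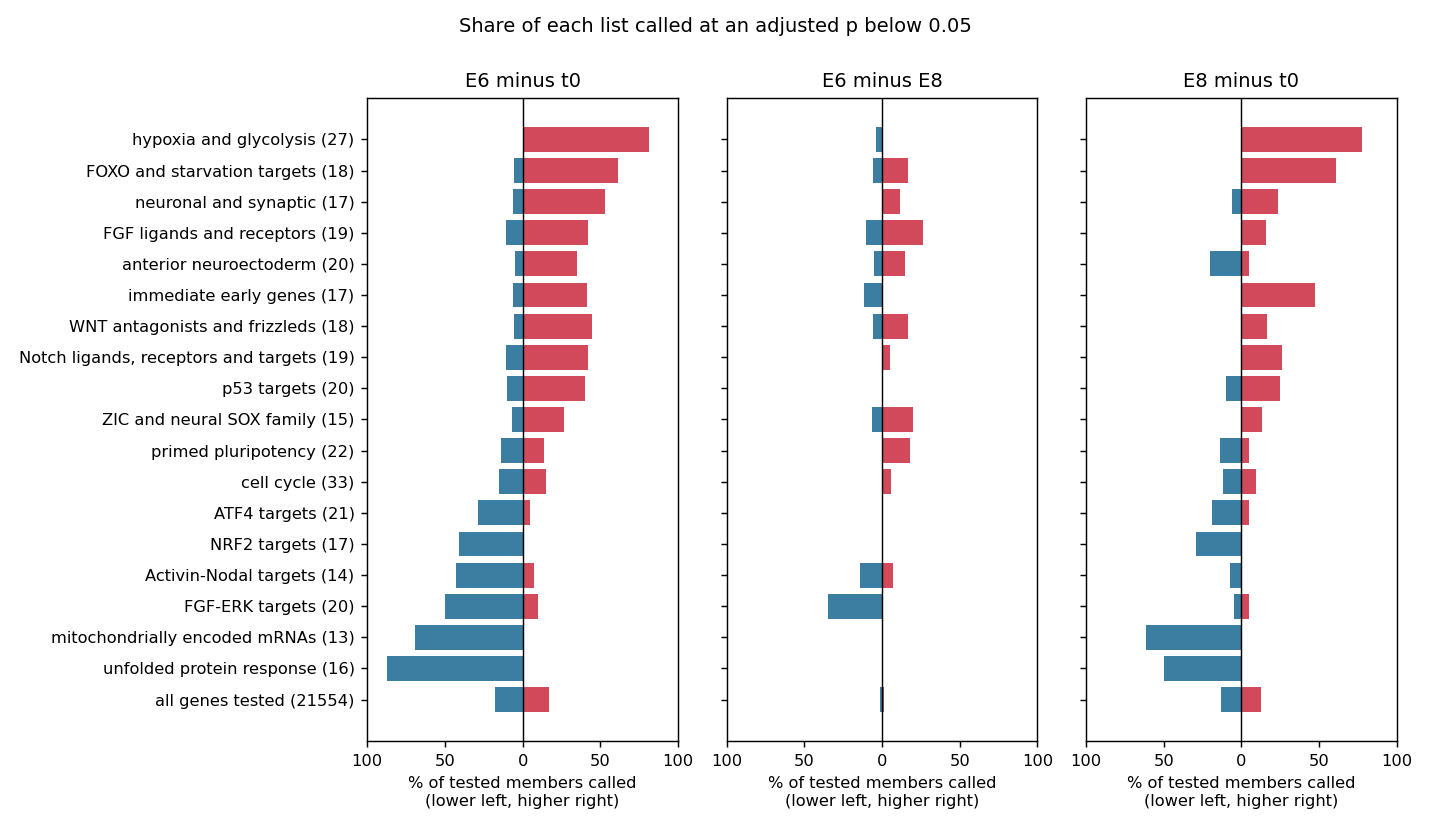
Percentage of the tested members of 18 gene lists, and of all genes tested, that were called higher (right, red) or lower (left, blue) in E6 minus t0, E6 minus E8 and E8 minus t0 (one panel each). Hypoxia and glycolysis genes are called higher against t0 in E6 and in E8 (22 and 21 of 27), and FGF-ERK targets are called lower in E6 against t0 and against E8 (10 and 7 of 20).

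SLC16A3, a lactate exporter (chr17:82228397-82261129, hg38), had 30.9, 187 and 207 CPM in E6, 68.8, 184 and 171 CPM in E8 and 1.43, 1.65 and 2.54 CPM in t0. E6 and E8 overlapped, and both lay above every t0 library. The log2 change was 6.08 ± 0.41 in E6 minus t0 (adjusted p = 2.62e-05) and -0.24 ± 0.31 in E6 minus E8 (adjusted p = 0.832). PFKFB4, a regulator of glycolytic flux, had 75.6, 279 and 312 CPM in E6, 115, 190 and 186 CPM in E8 and 21.7, 18.9 and 20.1 CPM in t0 (3.19 ± 0.41, adjusted p = 3.90e-04). BNIP3, a hypoxia-induced mitophagy receptor, rose by 3.11 ± 0.43 (adjusted p = 5.76e-04), and NDRG1, a widely used hypoxia marker, by 3.43 ± 0.83 (adjusted p = 0.00893). NDRG1 had 2.46, 67.9 and 63.4 CPM in E6 and 1.80, 3.14 and 3.95 CPM in t0, so its rise lay in replicates 2 and 3, and it lost its call without t0 replicate 2 or 3 (adjusted p up to 0.0659). The glycolytic enzymes LDHA and PGK1, whose reads may be shared with pseudogene copies, rose by 1.21 ± 0.28 (adjusted p = 0.00681) and 1.42 ± 0.35 (adjusted p = 0.0102), and PGK1 lost its call without t0 replicate 2 or 3 (up to 0.0538). Without the block, 6 of the 27 list members were called higher, and 13 to 25 when 1 library was left out. SLC16A3 (adjusted p = 0.0102) and PFKFB4 (0.0163) kept their calls there, and BNIP3, NDRG1, LDHA and PGK1 did not (0.0534 to 0.226).

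The hypoxia-inducible factor HIF-1 binds the core ACGTG, and the promoters of 2 members are shown because they hold that core. RefSeq promoters (GRCh38.p14, 250 bases before the gene's start) were found for 24 of the 27 list members. The core, searched on both strands, was in 11 of the 24 (45.8%), against 5101 of 27303 promoters in all (18.7%). The list was made of genes known for hypoxia and glycolysis, so this share describes the list and not the data. CACGTG, which is also an E-box, holds the core on each strand and was counted once per strand. Of the 11 genes with the core 10 rose, and of the 13 without it 10 rose. Capitals mark the core in the promoters of ANKRD37, a hypoxia-induced ankyrin repeat gene (chr4:185396591-185396840 on the plus strand), and LDHA (chr11:18394313-18394562 on the plus strand).
ANKRD37 promoter: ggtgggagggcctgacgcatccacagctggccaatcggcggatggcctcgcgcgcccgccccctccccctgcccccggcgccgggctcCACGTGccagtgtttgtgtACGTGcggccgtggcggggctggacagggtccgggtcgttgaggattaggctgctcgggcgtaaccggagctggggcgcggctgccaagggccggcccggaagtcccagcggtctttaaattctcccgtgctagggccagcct
LDHA promoter: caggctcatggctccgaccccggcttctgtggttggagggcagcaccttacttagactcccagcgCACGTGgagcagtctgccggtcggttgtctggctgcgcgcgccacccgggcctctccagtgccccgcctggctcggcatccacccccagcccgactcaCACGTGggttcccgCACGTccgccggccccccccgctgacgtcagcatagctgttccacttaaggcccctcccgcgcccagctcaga
The ANKRD37 window held 3 matches and the LDHA window 5, counted over both strands. ANKRD37 had 1.34, 14.3 and 13.1 CPM in E6, 1.79, 6.07 and 5.72 CPM in E8 and 0.425, 0.712 and 0.705 CPM in t0, a log2 change of 3.76 ± 0.48 (adjusted p = 3.77e-04). LDHA had 910, 2300 and 2380 CPM in E6, 1170, 2470 and 2390 CPM in E8 and 571, 771 and 833 CPM in t0. For both genes every E6 and E8 library was above every t0 library.

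The unfolded protein response restores folding capacity in the endoplasmic reticulum by inducing its chaperones. In E6 14 of its 16 genes fell, against 17.9% of all genes, with a median log2 change of -0.73. HSPA5, the chaperone BiP, had 581, 420 and 377 CPM in E6, 810, 402 and 370 CPM in E8 and 843, 1030 and 1080 CPM in t0. Every E6 library was below every t0 library, and E6 and E8 overlapped. HSPA5 fell by 1.12 ± 0.22 (adjusted p = 0.00294), SDF2L1, which works with BiP, by 1.11 ± 0.25 (adjusted p = 0.00612) and CRELD2, a secreted chaperone, by 0.93 ± 0.22 (adjusted p = 0.00701). XBP1, a transcription factor of the response, fell by 0.86 ± 0.17 (adjusted p = 0.00301). Of these XBP1 kept its call without the block (adjusted p = 0.0443), and HSPA5 (0.0555), SDF2L1 (0.159) and CRELD2 (0.0503) did not. In all, 1 of the 16 was called lower without the block, and 7 to 14 when 1 library was left out.

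The endoplasmic reticulum stress element ERSE, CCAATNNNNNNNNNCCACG, is the classical promoter element of these chaperones, and HSPA5 and CRELD2 are shown because they carry it. Searched on both strands in the same RefSeq windows, it was in 6 of the 16 list members (37.5%: HSPA5, HSP90B1, XBP1, CALR, CANX and CRELD2), against 22 of 27303 promoters in all (0.0806%). The list holds genes known for this response, so the share describes the list and not the data. All 6 carriers fell, as did 8 of the 10 members without the element. Capitals mark the element in the promoters of HSPA5 (chr9:125241344-125241593 on the minus strand) and of CRELD2 (chr22:49918384-49918633 on the plus strand), where it reads on the opposite strand.
HSPA5 promoter: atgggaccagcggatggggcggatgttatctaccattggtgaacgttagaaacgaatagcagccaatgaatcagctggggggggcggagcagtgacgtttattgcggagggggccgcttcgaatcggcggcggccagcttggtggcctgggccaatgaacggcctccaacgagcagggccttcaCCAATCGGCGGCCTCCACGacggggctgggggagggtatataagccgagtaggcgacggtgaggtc
CRELD2 promoter: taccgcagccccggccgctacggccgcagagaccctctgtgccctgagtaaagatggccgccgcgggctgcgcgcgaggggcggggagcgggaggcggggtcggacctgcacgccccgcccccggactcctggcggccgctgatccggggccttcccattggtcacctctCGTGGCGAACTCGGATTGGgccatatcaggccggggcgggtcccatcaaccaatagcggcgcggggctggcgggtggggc
CRELD2 had 16.9, 13.7 and 15.8 CPM in E6, 20.9, 13.2 and 13.2 CPM in E8 and 21.9, 34.1 and 33.6 CPM in t0. Each E6 library was below each t0 library, and E6 minus E8 was at 0.00 ± 0.22.

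Some targets of other stress programmes fell. Of 17 NRF2 targets (the antioxidant response) 7 fell and 0 rose, with a median log2 change of -0.22, and of 21 ATF4 targets (amino acid stress) 6 fell and 1 rose, with a median of -0.07, against 17.9% of all genes lower and 17.1% higher. Without the block 1 of each list was called lower, and when 1 library was left out 4 to 8 NRF2 and 2 to 9 ATF4 targets were. NQO1, a quinone reductase under NRF2, had 44.3, 26.7 and 27.2 CPM in E6, 46.3, 44.9 and 35.1 CPM in E8 and 95.4, 176 and 179 CPM in t0. It fell by 2.21 ± 0.30 (adjusted p = 5.18e-04), with no overlap between E6 and t0. SLC7A5, the large neutral amino acid transporter, had 284, 276 and 264 CPM in E6, 281, 472 and 361 CPM in E8 and 608, 769 and 789 CPM in t0, and fell by 1.35 ± 0.16 (adjusted p = 2.36e-04). Both kept their calls without the block (adjusted p = 0.00687 and 0.0157). MT-ATP6, a subunit of the mitochondrial ATP synthase, had 1000, 611 and 657 CPM in E6, 937, 843 and 1030 CPM in E8 and 1060, 2650 and 3240 CPM in t0. In replicate 1 the 3 groups were near each other, and the fall of 1.48 ± 0.36 (adjusted p = 0.00919) lay in replicates 2 and 3; it was lost without E6 replicate 2 or 3 or t0 replicate 2 or 3 (up to 0.0661). Of the 13 mitochondrial mRNAs 2 to 13 were called lower when 1 library was left out.

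Targets of FOXO factors, which are active when growth factor signalling through AKT is low, rose. In E6 minus t0 11 of 18 were higher and 1 was lower, against 17.1 and 17.9% of all genes. Their median log2 change was 1.22 (5 rose without the block, and 10 to 13 when 1 library was left out). In E8 minus t0 11 rose and 0 fell, against 12.6 and 13.0% of all genes. In E6 minus E8 3 were higher and 1 lower, against 1.52 and 1.32% of all genes. PNRC1, a nuclear receptor coregulator, had 28.0, 36.2 and 38.2 CPM in E6, 21.1, 30.5 and 26.7 CPM in E8 and 5.15, 7.41 and 6.31 CPM in t0. E6 and E8 libraries overlapped and stood well above t0, with 2.47 ± 0.10 in E6 minus t0 (adjusted p = 3.44e-07) and 0.40 ± 0.10 in E6 minus E8 (adjusted p = 0.0469). SESN3, an inhibitor of mTORC1 signalling, rose by 1.95 ± 0.15 (adjusted p = 3.32e-05) and was above E8 (1.05 ± 0.15, adjusted p = 0.00382). DDIT4, another mTORC1 inhibitor counted among the ATF4 targets, had 118, 223 and 223 CPM in E6, 66.2, 109 and 101 CPM in E8 and 12.4, 19.4 and 25.1 CPM in t0 (3.32 ± 0.33, adjusted p = 1.02e-04). All 3 E6 libraries were above all E8 libraries, though the direct test did not call it (0.99 ± 0.30, adjusted p = 0.124). PNRC1 (adjusted p = 0.00166) and DDIT4 (0.0207) kept their calls without the block, and SESN3 (0.106) did not.

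Of 33 cell cycle genes 5 rose and 5 fell, no more than the 17.1 and 17.9% of all genes, and 1 and 0 were called without the block. CDKN1C, the inhibitor p57, had 24.1, 23.7 and 23.9 CPM in E6, 10.6, 10.8 and 9.86 CPM in E8 and 6.58, 5.53 and 6.77 CPM in t0. The 3 groups did not overlap and replicate 1 was level with the others. CDKN1C rose by 1.95 ± 0.22 against t0 (adjusted p = 2.22e-04) and stood 1.21 ± 0.22 above E8 (adjusted p = 0.0134), and it kept its call without the block (adjusted p = 0.00539). The S-phase genes CCNE2 and RRM2 fell by 1.39 ± 0.23 (adjusted p = 0.00142) and 1.14 ± 0.21 (adjusted p = 0.00253), whereas the mitotic checkpoint kinase BUB1 rose by 0.66 ± 0.08 (adjusted p = 2.31e-04). These 3 calls were absent without the block (0.209 to 0.383).

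Some WNT regulators, Notch genes and retinoic acid genes rose. Of 18 WNT antagonists and frizzled receptors 8 rose and 1 fell, against 17.1% and 17.9% of all genes. Without the block the counts were 1 higher and 1 lower for these, 2 and 0 for the Notch genes and 0 and 0 for the retinoic acid genes. When 1 library was left out 3 to 8, 5 to 10 and 2 to 7 of the 3 lists were called higher. SFRP2, the member that fell, had 224, 204 and 208 CPM in E6, 514, 524 and 394 CPM in E8 and 497, 609 and 557 CPM in t0 (-1.35 ± 0.21, adjusted p = 0.00109). Its paralogue SFRP1 had 2150, 1450 and 1460 CPM in E6, 1420, 787 and 643 CPM in E8 and 1370, 949 and 884 CPM in t0 (0.69 ± 0.13, adjusted p = 0.00284). Both are secreted proteins that bind WNT, and both also differed from E8, SFRP2 downward and SFRP1 upward (-1.16 ± 0.21, adjusted p = 0.0143, for SFRP2 and 0.89 ± 0.13, adjusted p = 0.00496, for SFRP1). Of 19 Notch genes 8 rose and 2 fell. DLL1, a Notch ligand, had 9.88, 3.78 and 4.71 CPM in E6, 2.30, 0.881 and 0.822 CPM in E8 and 5.78, 0.809 and 0.705 CPM in t0, and was highest in E6 within each replicate number (1.79 ± 0.35, adjusted p = 0.00336). Of 18 retinoic acid genes 7 rose and 2 fell. CRABP2, a carrier of retinoic acid, had 38.1, 235 and 242 CPM in E6, 23.5, 92.5 and 80.8 CPM in E8 and 19.9, 36.0 and 40.9 CPM in t0 (2.15 ± 0.31, adjusted p = 6.93e-04). SFRP2 kept its call without the block (adjusted p = 0.0164), and SFRP1, DLL1 and CRABP2 did not (0.0888 to 0.436).

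Single libraries at 6 h steps show when these genes moved in the series that ends with E6 replicate 1. They begin at t0 replicate 1 and have no replicate, so no test was made. DUSP6 stood at 356 CPM at t0, 429 CPM at 30 h, 273 CPM at 36 h, 114 CPM at 42 h and 77.2 CPM at 48 h. ETV5 had 104 CPM at 30 h, 84.6 CPM at 36 h, 51.0 CPM at 42 h and 28.5 CPM at 48 h. NPTX1 had 2.58 CPM at 30 h, 37.1 CPM at 36 h, 462 CPM at 42 h and 216 CPM at 48 h, whereas in E8 it stayed at 1.19 to 3.17 CPM from 6 h on. DUSP6 and ETV5 were near their t0 level until 30 h, apart from ETV5 at 18 h (67.7 CPM), and DUSP6 was lower from 36 h on and ETV5 from 42 h on. NPTX1 was first higher at 36 h. FEZF1 had 1.39 CPM at 36 h, 6.93 CPM at 42 h and 28.6 CPM at 48 h, and SOX21 had 8.42, 33.6 and 68.4 CPM at these times, so that both were clearly above t0 only from 42 h on. The library at 18 h in E6 departed from its neighbours for several genes. POU5F1 had 1250 CPM there, against 568 CPM at 12 h and 556 CPM at 24 h, and ARID1A had 238 CPM against 617 and 582 CPM. In E8 the libraries at 18 and 36 h departed for several genes too. SLC16A3 had 14.9 and 47.5 CPM there, against 1.60 CPM at 12 h, 2.92 CPM at 24 h, 1.07 CPM at 30 h and 23.9 CPM at 42 h. CDH1 had 18.5 and 24.9 CPM, against 126, 100, 123 and 137 CPM at those hours.

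**Figure D4:**
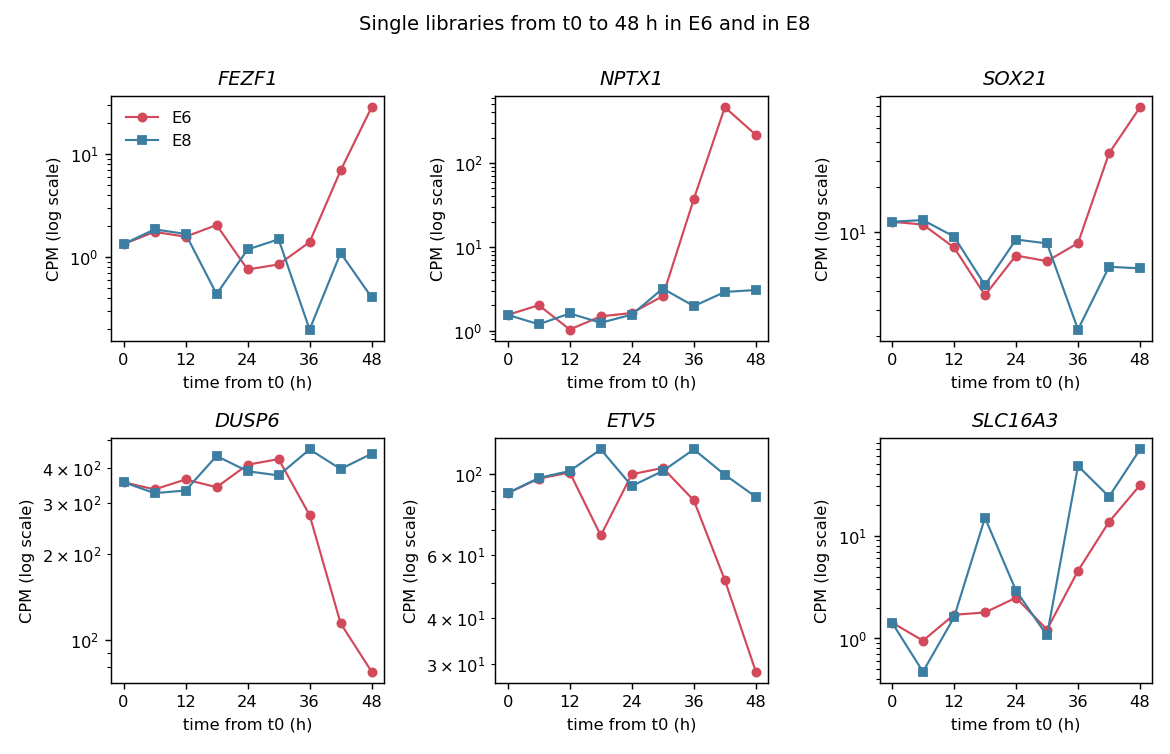
CPM of FEZF1, NPTX1, SOX21, DUSP6, ETV5 and SLC16A3 on a log axis against time from t0 (h) in E6 (red) or E8 (blue), with 1 library per point; the point at 0 h is t0 replicate 1, which both lines share. In E6, DUSP6 and ETV5 leave their early level after 30 h and reach 77.2 and 28.5 CPM at 48 h, NPTX1 is up from 36 h and FEZF1 and SOX21 from 42 h.

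The change itself differed between replicate 1 and replicates 2 and 3 for many genes. A test of E6 minus t0 in replicate 1 against that in replicates 2 and 3 called 2574 genes (11.9%), 904 (4.19%) with a higher and 1670 (7.75%) with a lower change in replicate 1. It did not call 3 FGF-ERK targets and FEZF1: the difference was 0.29 for DUSP6 (adjusted p = 0.323), 0.10 for ETV4 (adjusted p = 0.696) and -0.22 for ETV5 (adjusted p = 0.341), and FEZF1 gave -0.96 (adjusted p = 0.337). LHX5 (-8.30, adjusted p = 3.63e-05), SOX21 (-1.92, adjusted p = 3.50e-04) and PFKFB4 (-2.28, adjusted p = 1.01e-04) rose less in replicate 1. SIX6 (4.08, adjusted p = 1.80e-05) and LEFTY2 (3.72, adjusted p = 2.90e-04) fell less there. NPTX1 rose more in replicate 1 (2.16, adjusted p = 0.0111). GREB1L, a gene needed for kidney development, had 131, 46.2 and 58.2 CPM in E6 and 81.9, 0.777 and 0.846 CPM in t0, so its fitted rise of 4.84 ± 0.93 (adjusted p = 0.00288) came mostly from t0 replicates 2 and 3 being near 1 CPM.

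Whole lists differed in the same way when the change was taken within each replicate number, as the median difference of log2(CPM + 0.5) over the tested members. Hypoxia and glycolysis genes stood at 0.42 in replicate 1, 1.43 in replicate 2 and 1.28 in replicate 3, and anterior neuroectoderm markers at 0.29, 0.77 and 0.79. Mitochondrially encoded mRNAs stood at 0.03, -1.32 and -1.46, and NRF2 targets at 0.02, -0.47 and -0.49. The medians of both falling lists were thus near 0 in replicate 1. ATF4 targets were at 0.14, -0.34 and -0.51, and primed pluripotency markers at 0.09, -0.55 and -0.52, so that their medians differed in sign between replicate 1 and the others. Activin-Nodal targets (-0.63, -1.56 and -1.85), genes of the unfolded protein response (-0.26, -0.82 and -0.96) and FOXO targets (0.95, 1.12 and 1.08) had 1 sign throughout. FGF-ERK targets stood at -0.92, -0.26 and -0.44, lowest in replicate 1. With replicates 2 and 3 alone, the calls were 11 higher and 1 lower for anterior neuroectoderm markers, 5 higher and 11 lower for FGF-ERK targets, 26 higher and 0 lower for hypoxia and glycolysis genes, 0 higher and 15 lower for the unfolded protein response and 8 higher and 12 lower for primed pluripotency markers. That fit called more genes in all, 6370 higher and 6037 lower of 21822 tested, so these counts stand against a larger background.

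**Figure D5:**
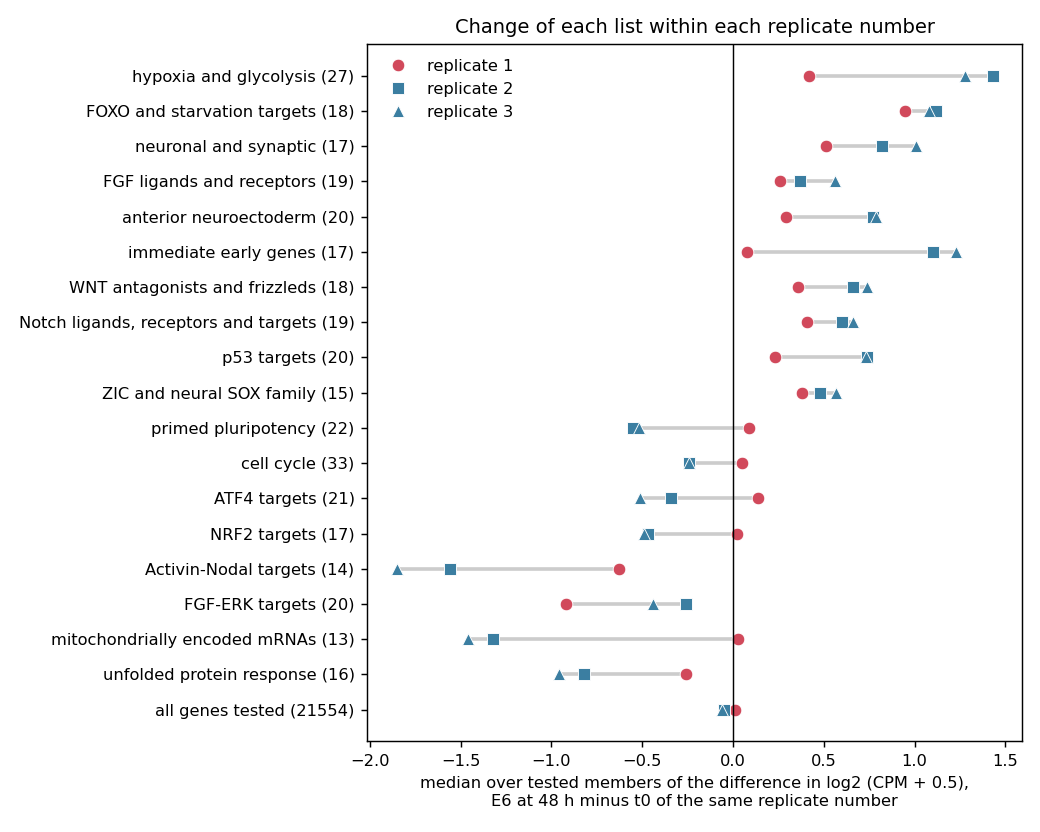
Median difference between E6 and t0 of log2(CPM + 0.5) over the tested members of each gene list, computed within replicate 1 (red) and within replicates 2 and 3 (blue). Points to the right of 0 are higher in E6; the red point of hypoxia and glycolysis genes is at 0.42 against 1.43 and 1.28 for the blue ones, and FGF-ERK targets are lowest in replicate 1 (-0.92).

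The authors' deposited table for E6 at 48 h lists 55889 genes, of which 2150 have an adjusted p below 0.05, 1482 with a positive and 668 with a negative log2 fold change; its header does not name the group that E6 was set against. In the authors' deposited table FEZF1 has a log2 fold change of 4.71, NPTX1 of 4.63, DUSP6 of -2.29 and SLC16A3 of 4.81.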

How the data were processed

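RNA of 35 libraries was sequenced by the authors; the 6 libraries of E6 at 48 h and t0 are the subject, with E8 at 48 h beside them. Per the file headers, the deposited table holds read counts of 58581 genes under GENCODE 23 symbols, and a second deposited table holds the authors' log2 fold changes and p-values. Per the submitters' processing notes, reads were aligned to hg38, counted with featureCounts and tested with DESeq2; versions are not given in the sources used here. Library totals, which set the precision, were 11793453 to 37191969 counts.

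Counts of the 15 libraries of the 5 replicated groups were fitted here with edgeR 4.0.16 (limma 3.58.1, R 4.3.3): TMM factors, filterByExpr (21554 genes kept), group plus replicate number, quasi-likelihood F-test, Benjamini-Hochberg adjustment over all genes tested, calls below 0.05. The model shares its spread over the 5 groups. The SE is the absolute log2 change divided by the square root of F. CPM used TMM factors. E6 minus E8, E8 minus t0 and an interaction of E6 minus t0 with replicate 1 were tested alike. The script was tested on simulated data. DESeq2 1.42.0, other scaling, no filter, no block, fewer libraries and leaving out each library were alternatives.

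The replicate number was kept as a block because same-numbered libraries of E6 and t0 deviated together from their group means (r of 0.837, 0.731 and 0.717 for numbers 1, 2 and 3). That came from replicate 1 standing apart from replicates 2 and 3: between replicates 2 and 3 themselves, the deviations correlated at -4.60e-04. Where the pairing comes from is not stated in the labels.

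The 41 gene lists and the members were chosen with earlier results of these data known, so counts over lists are descriptions with no test. Named genes were 11 markers, the 12 largest rises and falls among called protein-coding genes with a mean of at least 10 CPM and the same sign in 3 of 3 replicate numbers, and up to 3 called members per list and direction with at least 1 CPM; noncoding genes taken by a like rule are not described. OTX2, ZIC2, SPRY2, SPRY4, IL17RD, MYC, DCX, MAP2, NEFL, PMEPA1, SKIL, LEFTY1, FGF4, FGFR2, FGFR4, BNIP3, PGK1, LDHA, SESN3, XBP1, CRABP2, DLL1, SFRP1 and BUB1, and the further list members named without being taken by this rule, were named after their values were seen. Positions came from GENCODE 29 on hg38. The strand setting of the counting is not stated, so genes that overlap on the opposite strand cannot be told apart, among them FEZF1, LHX5, DUSP6, SLC16A3, POU5F1, PAX6, TIMP4, TAGLN, ENC1, GBX2 and EGR3. The symbol T is printed as TBXT. Some genes are not reported here. Sequences are RefSeq promoters of GRCh38.p14, trimmed to the 250 bases before the start.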

Additional observations from a re-analysis of the deposited data

Results flagged for a closer look

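The change in E6 against t0 differed between replicate 1 and replicates 2 and 3 for 2574 genes in the interaction test (edgeR quasi-likelihood, adjusted p below 0.05). The difference in log2 change, replicate 1 minus replicates 2 and 3, was -6.47 for IGFBP5 (an IGF-binding protein), -5.48 for GREB1L, -3.49 for TAGLN (a smooth muscle actin-binding protein), -3.79 for PDGFB (a growth factor), -2.35 for ENC1 (an actin-binding protein) and 3.35 for LRRN2 (a leucine-rich repeat protein), at adjusted p of 1.29e-07 to 3.20e-06. IGFBP5 had 133, 73.6 and 64.8 CPM in E6 and 154, 0.938 and 1.09 CPM in t0, and TAGLN had 25.2, 172 and 169 CPM in E6 and 174, 114 and 121 CPM in t0. PDGFB had 6.48, 33.4 and 28.0 CPM in E6 and 31.9, 11.6 and 12.9 CPM in t0, so that replicate 1 and replicates 2 and 3 moved in opposite directions for PDGFB and TAGLN. No formal outlier test was applied within single groups, since each holds 3 libraries.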

How the results depend on the processing

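The count of genes called in E6 minus t0 stayed within 1.5-fold of 7553 with DESeq2's size factors (7588), without the filter (6498), with DESeq2 (7967), with a block of 2 levels (7964) and in the 6 libraries alone with the block (7245). It was 836 with no replicate block, 3 in the 6 libraries with no block, 12407 with replicates 2 and 3 only, and 3932 to 7528 when 1 library was left out. E6 minus E8 gave 612 genes, against 1129 with DESeq2, 31 with no block, 1613 in its 6 libraries with the block and 0 without it (946 at an unadjusted p below 0.05, edgeR), 4636 with replicates 2 and 3 only, and 163 to 692 when 1 library was left out, falling by more than 1.5-fold without E6 replicate 2 (175) or 3 (163) or E8 replicate 2 (173) or 3 (193). E8 minus t0 gave 5510, against 30 with no block, 3338 in its 6 libraries with the block and 0 without it (2482 unadjusted, edgeR), 11728 with replicates 2 and 3 only, and 1539 to 6200 when 1 library was left out, falling by more than 1.5-fold without t0 replicate 2 (1739) or 3 (1539) or E8 replicate 2 (2012) or 3 (2361). The interaction count stayed within 1.5-fold of 2574 with DESeq2's size factors and without the filter, the alternatives run for it. Of the 198 called genes taken by the rule for named genes or added to it, which include genes not described in the text, 124 kept their call in all fits that left out 1 library, 49 with no block, 180 in the 6 libraries with the block and 198 with DESeq2 and with replicates 2 and 3 only. The 6 libraries with the block kept OTX2 (adjusted p = 0.00387), POLR3G (0.00515), CDH1 (0.00562), ID2 (0.00572), ID1 (0.00808) and SPRY4 (0.00845). They did not keep LHX5 (0.0695), GREB1L (0.0763), SKIL (0.063), MYC (0.0851) and MT-ATP6 (0.0524). The cause of these shifts was not tested. The log2 changes that turned direction belong to genes not called: with no block MIXL1 0.34, PDGFB 0.31 and ENC1 -0.56; in the 6 libraries with the block PDGFB 0.33 and ENC1 -0.41, and without it MIXL1 0.38, PDGFB 0.33 and ENC1 -0.54; with replicates 2 and 3 only PAX6 -0.17, TAGLN 0.62 and PDGFB 1.4. When 1 library was left out, the change reached 0 or turned direction in at least 1 fit for MIXL1 (-1.87 to 0.44), SOX17 (-3.71 to 2.66), PDGFB (-1.0 to 1.37), POU5F1 (-0.33 to 0.23), ENC1 (-0.51 to 0.63), PAX6 (-0.18 to 0.58), EOMES (0 to 2.74), GSC (-0.43 to 2.38), TAGLN (-1.62 to 0.58) and CDX2 (-3.88 to 0.63). The depth of 17562913 to 32379116 counts in E6 limits genes under 1 CPM, such as SOX17, GSC and CDX2.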

Other observations

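The other gene lists gave the following counts in E6 minus t0 (17.1% of all genes higher, 17.9% lower). Of 10 metallothionein and metal handling genes 5 fell and 2 rose; MT1G, a zinc-binding metallothionein, had 0.726, 0.255 and 0.201 CPM in E6, 1.96, 1.51 and 1.54 CPM in E8 and 1.38, 3.72 and 3.95 CPM in t0 (log2 change -2.99 ± 0.58, adjusted p = 0.00308). Of 21 epithelial genes 5 rose and 2 fell. KRT18, a keratin of simple epithelia, had 51.1, 140 and 132 CPM in E6, 97.1, 328 and 277 CPM in E8 and 107, 305 and 287 CPM in t0 (-1.09 ± 0.10, adjusted p = 7.47e-05), and CDH1, E-cadherin, rose by 1.28 ± 0.44 (adjusted p = 0.0395), a call that no fit with 1 library left out retained (up to 0.142). KRT18 and CDH1 were not called without the block (adjusted p = 0.416 and 0.28), whereas MT1G was (0.0328). Of 14 mesenchymal genes 1 rose and 3 fell, and of 40 collagen, laminin and integrin genes 7 rose and 6 fell. Of 25 cholesterol synthesis genes 8 rose and 2 fell, of 20 p53 targets 8 rose and 2 fell, of 17 immediate early genes 7 rose and 1 fell, and of 26 Polycomb and BAF genes 7 rose and 2 fell. Of 8 DNA methylation enzymes 1 rose and 3 fell, of 18 TGF-beta family receptors and SMADs 5 rose and 2 fell, of 13 WNT targets 5 rose and 1 fell, and of 19 interferon response genes 3 rose and 2 fell. Of 11 fatty acid genes 2 rose and 2 fell, of 14 YAP targets 1 rose and 1 fell, and of 13 neural crest and placode markers 1 rose and 1 fell. Of 8 fibroblast markers 1 rose and 2 fell, of 8 blood and endothelium markers 0 rose and 1 fell, and the 1 HOX gene tested, of 16, was not called.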
